A study of Mus musculus with 4 samples.

Results

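The levels of 10 genes of nuclear receptors that govern liver metabolism were followed across 4 RNA sequencing libraries of mouse liver cells. The genes were taken by name, Nr1h4, Nr1h3, Nr0b2, Nr5a2, Nr1i2, Nr1i3, Ppara, Pparg, Ppard and Rxra, and all 10 were found among the 41128 gene identifiers of the deposited table and among the 21640 genes with at least 10 counts in a library, which were the genes compared. The libraries came from Prom1+CD49f+CD45- cells, Prom1-CD49f+CD45- cells, cells labelled Prom1+CD49f+CD45+, and the presorted CD45- cells from which the other 3 populations were sorted. All 4 libraries shared the strain, C57BL/6, and the alcoholic hepatitis regimen, in which a high cholesterol and fat diet taken ad libitum gave 40% of calories, an alcohol liquid diet infused into the stomach gave the other 60%, and a weekly alcohol binge was added. No library of untreated mice was used here. Livers were digested with collagenase, hepatocytes were spun out at low speed, and CD45+ cells, the leukocytes, were taken out with magnetic beads before sorting on Prom1 (CD133, a surface protein of progenitor and biliary cells), CD49f (the integrin encoded by Itga6) and CD45 (encoded by Ptprc). Each library held the pooled RNA of 2 mice, and each population had 1 library.

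With 1 library per population there was no replicate spread and hence no test, p-value or SE. Each value is a count scaled by library with the TMM method (a trimmed mean of M values) and expressed as CPM, counts per unit of library size, given with an exact 95% interval that covers counting error only. To be called higher or lower, a gene had to have the whole interval of its ratio of 2 libraries beyond 2-fold, and differences not called in this way are given as values. A library with more counts gives narrower intervals, and the libraries held 30239681 gene counts in Prom1+CD49f+CD45- cells, 14670414 in Prom1-CD49f+CD45- cells, 23070164 in the library labelled Prom1+CD49f+CD45+, against 52294143 in the presorted library. The gene of the sorting protein, Prom1, stood at 355, 31.1, 11.4 and 67.1 CPM in this order of libraries, and Ptprc at 6.33, 3.60, 14.5 and 21.0 CPM. Both went against the label Prom1+CD49f+CD45+, since Prom1 was lowest in that library and Ptprc was lower there than in the presorted CD45- cells, so it is named by its label throughout. Itga6, the gene of CD49f, stood at 72.9, 50.5, 127 and 110 CPM in the same order. It did not go against this label, since no other library had a higher level. In both CD49f+CD45- fractions Itga6 lay below its presorted level, against the CD49f+ of their labels. The fall was called in Prom1-CD49f+CD45- cells, at 2.19-fold (2.02 to 2.37), and not in Prom1+CD49f+CD45- cells, at 1.52-fold.

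Marker lists describe which cells the libraries held. The 20 cholangiocyte (bile duct cell) markers summed to 55017 CPM in Prom1+CD49f+CD45- cells, 21263 in Prom1-CD49f+CD45- cells, 971 in the library labelled Prom1+CD49f+CD45+, against 10674 in the presorted library. The 29 hepatocyte markers summed to 16268, 13023, 1418 and 66021 CPM in the same order, with 58.8, 299, 30.5 and 1025 CPM at their median gene, so the sum and the median put Prom1+CD49f+CD45- and Prom1-CD49f+CD45- cells in opposite orders. None of these markers was at 0 in any library, although hepatocytes had been spun out. The 20 endothelial markers summed to 334, 10918, 25029 and 18644 CPM, also with none at 0. In such bulk libraries fewer cells of a type and less RNA per cell cannot be told apart.

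Nuclear receptors are transcription factors that are switched by small lipid-soluble molecules and bind short DNA elements, most of them as a pair with the retinoid X receptor. In liver they read the lipids the organ handles. The farnesoid X receptor (FXR, Nr1h4) senses bile acids, the liver X receptors sense oxysterols, the pregnane X receptor (PXR, Nr1i2) and the constitutive androstane receptor (CAR, Nr1i3) sense drugs and other foreign compounds, and the peroxisome proliferator-activated receptors (PPARs) sense fatty acids. The small heterodimer partner (SHP, Nr0b2) has no DNA-binding domain, is induced by FXR, and represses the bile acid synthesis genes that the liver receptor homolog LRH-1 (Nr5a2) drives as a monomer.

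The 250 bases before a gene's transcription start are printed for 4 of the receptors, from RefSeq on GRCm38.p6 (the mm10 genome), 5′ to 3′ on the gene's strand. Nr0b2, Nr1h4 and Nr1i2 are shown because they were called higher in Prom1+CD49f+CD45- cells than in both other sorted libraries, and the first of 2 Rxra starts because it differs from theirs in base composition. Capitals mark the motifs found on either strand: the extended half-site of monomeric receptors (CAAGGNCA), the nuclear receptor half-site (AGGTCA), a half-site of the liver factor HNF1 (GTTAAT), the TATA box (TATAAA) and the GC box (GGGCGG).
Nr0b2 (chr4:133553126-133553375, plus strand): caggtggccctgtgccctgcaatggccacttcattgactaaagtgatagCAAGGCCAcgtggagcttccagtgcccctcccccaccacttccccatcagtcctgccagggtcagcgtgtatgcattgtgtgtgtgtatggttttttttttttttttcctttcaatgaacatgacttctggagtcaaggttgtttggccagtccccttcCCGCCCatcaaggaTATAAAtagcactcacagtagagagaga
Nr1h4 (chr10:89506659-89506908, minus strand): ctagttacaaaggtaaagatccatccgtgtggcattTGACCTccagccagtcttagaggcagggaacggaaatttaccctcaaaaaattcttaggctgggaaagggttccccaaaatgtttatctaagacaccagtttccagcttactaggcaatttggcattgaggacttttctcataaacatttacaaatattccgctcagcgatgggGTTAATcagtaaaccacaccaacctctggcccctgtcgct
Nr1i2 (chr16:38294825-38295074, minus strand): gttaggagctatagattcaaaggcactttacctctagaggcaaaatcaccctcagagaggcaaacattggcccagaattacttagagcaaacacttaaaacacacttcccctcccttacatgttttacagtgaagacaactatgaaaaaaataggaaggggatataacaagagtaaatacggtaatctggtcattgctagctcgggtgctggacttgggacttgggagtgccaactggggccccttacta
Rxra (chr2:27676951-27677200, plus strand): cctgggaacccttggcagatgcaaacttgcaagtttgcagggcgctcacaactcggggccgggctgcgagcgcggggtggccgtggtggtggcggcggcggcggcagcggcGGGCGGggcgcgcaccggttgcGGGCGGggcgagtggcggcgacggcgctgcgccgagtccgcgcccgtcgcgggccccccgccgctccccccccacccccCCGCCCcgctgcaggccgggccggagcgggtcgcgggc

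The Nr0b2 window held a CAAGGCCA element at positions -201 to -194, counted back from the start site, a GC box at -42 to -37 and a TATA box at -28 to -23. The Nr1h4 window, before 1 of that gene's starts, held a nuclear receptor half-site read on the other strand (TGACCT) at -214 to -209 and the HNF1 half-site at -40 to -35. The Nr1i2 window held none of the motifs searched, and the printed Rxra window held 3 GC boxes, while the other Rxra start had 2 nuclear receptor half-sites and no GC box before it. Among the 32851 RefSeq windows of this length, 5.53% held CAAGGNCA, 14.0% the half-site, 6.43% GTTAAT, 12.4% the TATA box and 32.7% the GC box, so each of these matches is common. The inverted and the direct repeat of the half-site, each spaced by 1 base, were found in 2 and 11 of all windows and in none of the 15 windows of the 10 receptors. The first Rxra start had 40 CpG dinucleotides before it and the other 1, against 3 for Nr0b2, 5 for Nr1h4, 2 for Nr1i2 and a median of 6 over all windows. The other CpG-rich starts were those of Ppara with 27, Ppard with 22 and the first Pparg start with 38. Nr1i3 had 2 and the 2 starts of Nr5a2 had 2 and 6. A match describes letters in a window and is not evidence of binding.

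Per kilobase of transcript, the scale on which genes can be set against each other, Rxra stood highest in the presorted library at 78.5 CPM per kb. It was followed there by Nr1h3 at 26.2, Nr1i3 at 20.0, Nr0b2 at 18.7, Nr1h4 at 17.7 and Pparg at 11.6 CPM per kb. Ppara at 5.08, Nr5a2 at 2.43, Nr1i2 at 1.82 and Ppard at 0.634 CPM per kb closed the order. The intervals of Nr1i3 and Nr0b2 overlapped there, as did those of Nr0b2 and Nr1h4. In Prom1+CD49f+CD45- cells the order was another one, with Nr0b2 at 33.9 and Rxra at 31.0 CPM per kb at the top, their intervals overlapping, and Nr1i3 at 1.09 CPM per kb last, overlapping with Pparg and Ppara above it. Rxra led at 14.7 in Prom1-CD49f+CD45- cells and at 45.8 CPM per kb in the library labelled Prom1+CD49f+CD45+. In Prom1-CD49f+CD45- cells the interval of Rxra overlapped that of Nr0b2, at 12.7 CPM per kb. Nr1i2 was last in both, at 0.360 and 0.237 CPM per kb, overlapping with Ppara. The length is that of the median annotated coding transcript, and if the libraries were 3′ tags, as the series title has it, a level per length would overcorrect.

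**Figure D1:**
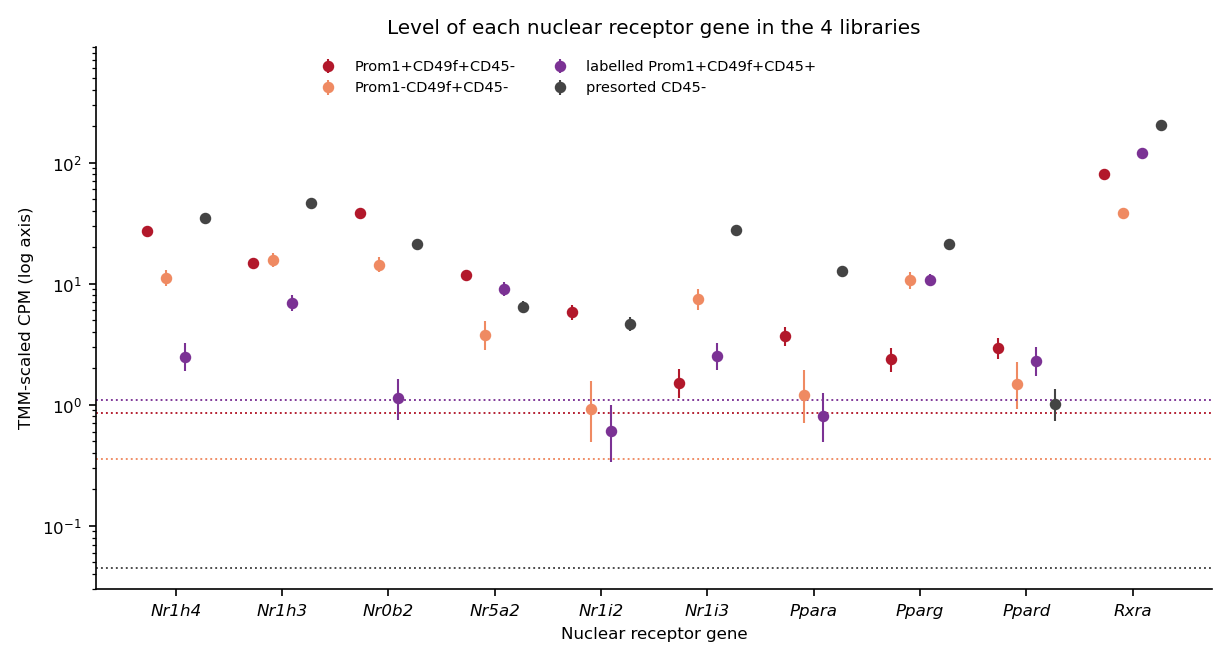
Level of each receptor gene in each library in TMM-scaled CPM on a log axis. Points are single libraries of 2 pooled mice, bars are exact 95% counting intervals, and each dotted line is percentile 95 of the chemosensory receptor genes in the library of its colour. In Prom1+CD49f+CD45- cells Nr1h4 and Nr1i2 lie near the presorted cells and Nr0b2 lies above them, each also above the other 2 sorted libraries. Pparg is lowest in Prom1+CD49f+CD45- cells. Nr1i3 is low there and, with an overlapping interval, in the library labelled Prom1+CD49f+CD45+.

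Against the other CD49f+CD45- cells, those without Prom1, the Prom1+CD49f+CD45- cells held more RNA of the bile acid sensor Nr1h4, the repressor Nr0b2 that it induces, the monomeric receptor Nr5a2 and the drug sensor Nr1i2, and less of the drug sensor Nr1i3 and of Pparg. Of the 10 receptors, 4 were called higher and 2 lower, where 15.5% of all genes compared were called higher and 12.7% lower, 28.2% in all. The median log2 ratio of the 10 was 1.18, against 0.33 over all genes. Against the presorted library, 1 of the 10 was called higher (Ppard) and 5 lower (Nr1h3, Nr1i3, Ppara, Pparg and Rxra) in Prom1+CD49f+CD45- cells, where 27.6% and 15.6% of all genes were called in these directions, 43.2% in all. The median log2 ratio of the 10 was -0.85 there, against 0.18 over all genes. With library totals in place of TMM the same comparison gave 3 higher and 4 lower.

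In Prom1-CD49f+CD45- cells 6 of the 10 were called lower than in the presorted library and 0 higher, where 14.1% of all genes were called lower and 9.77% higher, 23.9% in all. The 6 were Nr1h4, Nr1h3, Nr1i2, Nr1i3, Ppara and Rxra, and the median log2 ratio was -1.61, against 0.07 over all genes. In the library labelled Prom1+CD49f+CD45+, 6 were again lower and 0 higher than in the presorted library, where 12.1% of all genes were called lower and 23.8% higher, 35.9% in all. These 6 were Nr1h4, Nr1h3, Nr0b2, Nr1i2, Nr1i3 and Ppara, with a median over the 10 of -2.84, against 0.10 over all genes. Between Prom1+CD49f+CD45- cells and the library labelled Prom1+CD49f+CD45+, 4 were higher in Prom1+CD49f+CD45- cells (Nr1h4, Nr0b2, Nr1i2 and Ppara) and 1 lower (Pparg), where 12.5% of all genes were called higher and 13.1% lower, 25.6% in all. The 3 comparisons with presorted cells share that library, so their counts are not independent of each other. The direction of the background calls also depended on the setting. Of all genes called in the library labelled Prom1+CD49f+CD45+ against the presorted one, 66.3% were higher, but 45.1% at a minimum of 50 counts and 51.1% with the trend of the ratio on transcript length removed. For Prom1+CD49f+CD45- cells against the presorted library the share was 63.8%, but 49.0% with that trend removed. The setting without the trend held 16856 genes and the minimum of 50 counts 15557, against 21640 in the main one. These shares therefore differ in the genes counted as well. The log2 ratio correlated with transcript length at a Spearman of 0.17 in the former and 0.04 in the latter comparison. The part of the trend itself was not tested.

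**Figure D2:**
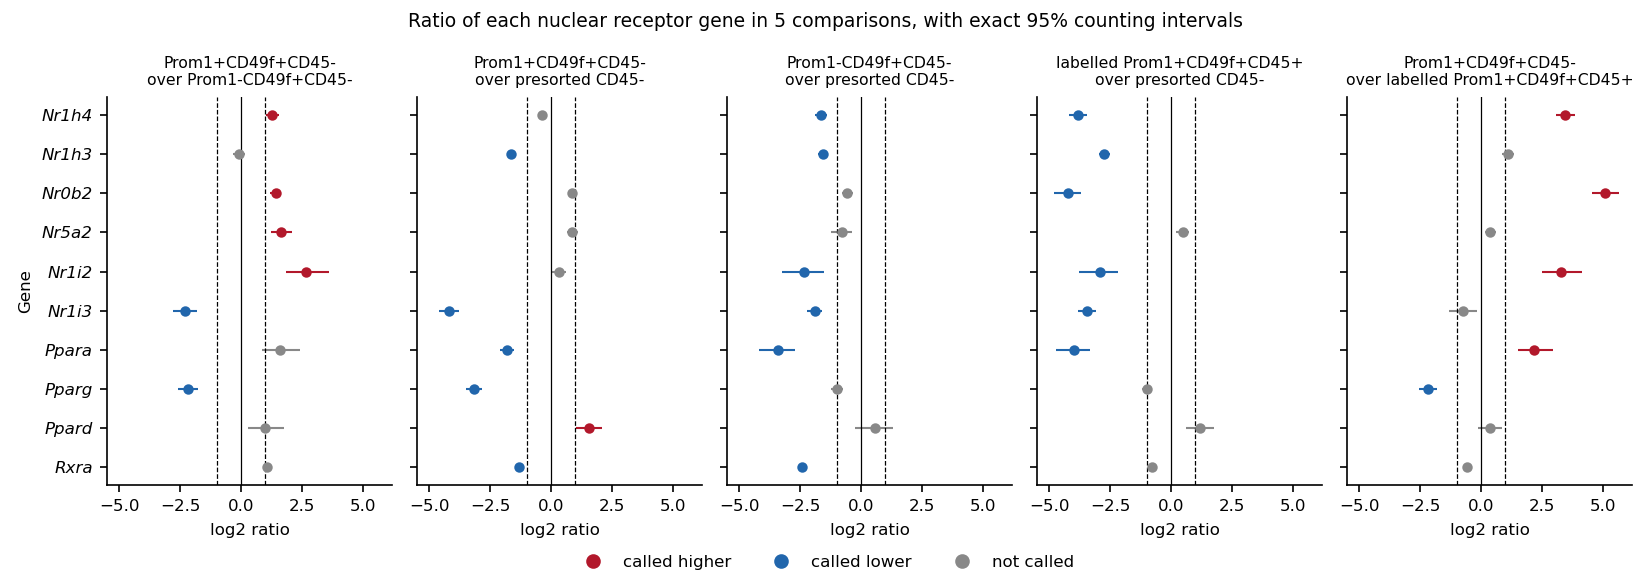
Log2 ratio of each receptor gene in the 5 comparisons, with exact 95% counting intervals (bars) and dashed lines at 2-fold. Red points are called higher, blue points lower and grey points neither. In the left panel 4 receptors are called higher and 2 lower, and in the panels against the presorted library 5, 6 and 6 are called lower.

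Nr1h4, the bile acid sensor, had 27.2 CPM in Prom1+CD49f+CD45- cells, 11.2 in Prom1-CD49f+CD45- cells, 2.50 in the library labelled Prom1+CD49f+CD45+, against 35.1 in the presorted library, and the 4 intervals did not overlap. It was 2.44-fold higher in Prom1+CD49f+CD45- than in Prom1-CD49f+CD45- cells (interval 2.06 to 2.90), a call that was lost with the size factors of DESeq2, where the log2 ratio was 1.11 in place of 1.28. Against the presorted library it was 1.29-fold lower in Prom1+CD49f+CD45- cells, which was not called, 3.14-fold lower in Prom1-CD49f+CD45- cells and 14.0-fold lower in the library labelled Prom1+CD49f+CD45+. The presorted level was approached in 1 of the 3 sorted libraries, the Prom1+CD49f+CD45- one.

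Nr0b2, which encodes SHP, was the receptor gene with the widest range. It had 38.4 CPM in Prom1+CD49f+CD45- cells, 14.3 in Prom1-CD49f+CD45- cells, 1.13 in the library labelled Prom1+CD49f+CD45+, against 21.2 in the presorted library. Prom1+CD49f+CD45- cells were the highest of the 4, and no intervals overlapped. The gene was 2.68-fold higher than in Prom1-CD49f+CD45- cells (2.31 to 3.12) and 34.0-fold higher than in the library labelled Prom1+CD49f+CD45+ (23.4 to 51.4). The 1.81-fold excess over presorted cells (1.66 to 1.97) was not called with TMM and was called with library totals, where the log2 ratio was 1.27 in place of 0.86. The 28 counts in the library labelled Prom1+CD49f+CD45+ lay 1.04-fold over percentile 95 of 1669 olfactory, vomeronasal and trace amine receptor genes. This percentile was taken as the level that stray reads can reach, on the assumption that liver cells use few of these genes. That percentile differed by library, at 0.846 CPM in Prom1+CD49f+CD45- cells, 0.353 in Prom1-CD49f+CD45- cells, 1.09 in the library labelled Prom1+CD49f+CD45+, against 0.045 in the presorted library. The part of stray reads in the shares of all genes called higher than in the presorted library was not tested.

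The ratio of Nr0b2 to Nr1h4 counts also differed by library. It was 1.41 in Prom1+CD49f+CD45- cells (1.30 to 1.54) and 1.28 in Prom1-CD49f+CD45- cells (1.04 to 1.59). It was 0.452 in the library labelled Prom1+CD49f+CD45+ (0.278 to 0.716), against 0.605 in the presorted library (0.558 to 0.657). Nr0b2 was therefore higher relative to the receptor that induces it in both CD49f+CD45- fractions than in the cells they were sorted from.

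Nr5a2, the gene of LRH-1, had 11.7 CPM in Prom1+CD49f+CD45- cells, 3.74 in Prom1-CD49f+CD45- cells, 8.98 in the library labelled Prom1+CD49f+CD45+, against 6.46 in the presorted library. The order differed from that of Nr1h4 and Nr0b2, with the library labelled Prom1+CD49f+CD45+ second and Prom1-CD49f+CD45- cells last, and no neighbouring intervals overlapped. It was called in 1 of the 5 comparisons, at 3.13-fold higher in Prom1+CD49f+CD45- than in Prom1-CD49f+CD45- cells (2.35 to 4.26). Against the presorted library it was 1.82-fold higher, 1.73-fold lower and 1.39-fold higher in the 3 sorted libraries, none of them called with TMM.

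Most genes that FXR, SHP and LRH-1 are known to control, and bile acid carriers and enzymes with them, were lower in Prom1+CD49f+CD45- than in the presorted library. Of 20 bile acid genes 18 passed the filter, and 13 were called lower and 3 higher than in the presorted library. Their median log2 ratio was -2.86, against 0.18 over all genes. Of all genes, 15.6% were called lower and 27.6% higher there, so the 3 higher ones are a smaller share than over all genes. Cyp8b1, the enzyme that sets the cholic acid share, was at 0.204 CPM in Prom1+CD49f+CD45- cells, 1.55 in Prom1-CD49f+CD45- cells, 0.725 in the library labelled Prom1+CD49f+CD45+, against 28.9 in the presorted library. Its level in Prom1+CD49f+CD45- cells rested on 7 counts and lay below percentile 95 of the chemosensory genes in that library (0.846 CPM), and so did the level in the library labelled Prom1+CD49f+CD45+ against its own limit (1.09 CPM). The bile salt export pump Abcb11, an FXR target, had 4.17, 4.94, 6.24 and 128 CPM in the same order of libraries and was 30.7-fold lower in Prom1+CD49f+CD45- than in the presorted library. Slco1b2, a bile acid uptake carrier of hepatocytes, had 10.8, 29.1, 9.35 and 410.0 CPM and was 37.9-fold lower. Presorted cells were the highest library for all 3.

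The 3 bile acid genes called higher in Prom1+CD49f+CD45- than in the presorted library were Fgfr4, Slc10a2 and Gpbar1. Fgfr4, the liver receptor for the gut hormone that FXR induces, had 83.7 CPM in Prom1+CD49f+CD45- cells, 10.5 in Prom1-CD49f+CD45- cells, 1.09 in the library labelled Prom1+CD49f+CD45+, against 20.3 in the presorted library, and was 4.11-fold higher in Prom1+CD49f+CD45- than in the presorted library (3.81 to 4.44). Its coreceptor Klb went the other way, at 2.16, 0.353, 0.645 and 9.92 CPM, and was 4.60-fold lower. Slc10a2, the apical bile acid uptake carrier known from ileum and bile ducts, had 11.9, 1.70, 1.29 and 4.77 CPM and was 2.50-fold higher (2.11 to 2.97). The bile acid receptor gene Gpbar1 had 19 counts in Prom1+CD49f+CD45- cells, 0.554 CPM, also below percentile 95 of the chemosensory genes. Slc10a2 and Gpbar1 were named after their values were seen, to complete the count of 3.

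In the other sorted libraries the same 18 bile acid genes gave 11 lower and 0 higher in Prom1-CD49f+CD45- cells (median -3.19), and 15 lower and 0 higher in the library labelled Prom1+CD49f+CD45+ (with a median of -4.08), both against the presorted library. The hepatocyte markers were lower in these libraries too. Of 29, 26 were called lower in Prom1+CD49f+CD45- cells, 28 in Prom1-CD49f+CD45- cells and all 29 in the library labelled Prom1+CD49f+CD45+. None was higher in any of the 3, and the medians were -4.79, -2.80 and -5.54. By these medians the markers fell further in Prom1+CD49f+CD45- than in Prom1-CD49f+CD45- cells, unlike the bile acid genes. Of 20 cholangiocyte markers, 19 were called higher in Prom1+CD49f+CD45- cells (median 2.71), where Nr0b2 and Fgfr4 were highest. In Prom1-CD49f+CD45- cells 9 were higher and 1 lower (1.02), although both genes lay below their presorted levels there. In the library labelled Prom1+CD49f+CD45+, 19 were lower (-2.99). In these 3 comparisons with the presorted library 15.6%, 14.1% and 12.1% of all genes were called lower, and 27.6%, 9.77% and 23.8% higher. The part of either cell type in these results was not tested.

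Nr1h3, the gene of the oxysterol sensor LXR alpha, had 14.9 CPM in Prom1+CD49f+CD45- cells, 15.8 in Prom1-CD49f+CD45- cells, 6.93 in the library labelled Prom1+CD49f+CD45+, against 46.4 in the presorted library. Presorted cells were highest and the 2 CD49f+CD45- fractions overlapped in their intervals. It fell 3.13-fold in Prom1+CD49f+CD45- cells (2.84 to 3.45), 2.95-fold in Prom1-CD49f+CD45- cells (2.57 to 3.40) and 6.70-fold in the library labelled Prom1+CD49f+CD45+ (5.73 to 7.87), each against the presorted library. Its widely expressed paralog Nr1h2, LXR beta, was not called in any of the 5 comparisons, at 73.4, 77.0, 69.7 and 83.1 CPM. The LXR alpha share of the LXR counts per kb was 18.2% in Prom1+CD49f+CD45- cells, 18.4% in Prom1-CD49f+CD45- cells, 9.86% in the library labelled Prom1+CD49f+CD45+, against 38.1% in the presorted library.

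Of 17 LXR targets, 9 were called lower and 0 higher in Prom1+CD49f+CD45- than in the presorted library, 11 lower and 0 higher in Prom1-CD49f+CD45- cells, and 9 lower and 0 higher in the library labelled Prom1+CD49f+CD45+, with medians of -1.04, -1.62 and -1.57. The shares of all genes called lower in these comparisons were 15.6%, 14.1% and 12.1%, and 43.2%, 23.9% and 35.9% were called in either direction. Scd1, the desaturase that makes oleic acid, had 20.5, 43.9 and 19.9 CPM in the 3 sorted libraries and 742 CPM in the presorted library, and was lower in all 3. Mylip, which encodes a ligase that degrades the LDL receptor, split the sorted libraries, with 2.31 CPM in Prom1+CD49f+CD45- cells, 69.6 in Prom1-CD49f+CD45- cells, 244 in the library labelled Prom1+CD49f+CD45+, against 176 in the presorted library. It was 76.4-fold lower in Prom1+CD49f+CD45- than in the presorted library (61.3 to 96.7). Endothelial markers moved with Mylip, all 20 of them called lower in Prom1+CD49f+CD45- than in the presorted library with a median of -6.59, and their part in the result was not tested. Myo1e, a myosin gene, had 134, 22.3, 41.0 and 73.7 CPM and was 5.98-fold higher in Prom1+CD49f+CD45- than in Prom1-CD49f+CD45- cells.

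The 2 drug sensors parted. Nr1i2, the gene of PXR, had 5.81 CPM in Prom1+CD49f+CD45- cells, 0.918 in Prom1-CD49f+CD45- cells, 0.604 in the library labelled Prom1+CD49f+CD45+, against 4.64 in the presorted library, with overlapping intervals between the 2 high and between the 2 low libraries. It was 6.32-fold higher in Prom1+CD49f+CD45- than in Prom1-CD49f+CD45- cells (3.61 to 12.1), where it rested on 13 counts. The 15 counts in the library labelled Prom1+CD49f+CD45+ were below percentile 95 of the chemosensory genes there (1.09 CPM), so a level above stray reads was not detectable at this depth.

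Nr1i3, the gene of CAR, had 1.52 CPM in Prom1+CD49f+CD45- cells, 7.42 in Prom1-CD49f+CD45- cells, 2.54 in the library labelled Prom1+CD49f+CD45+, against 27.8 in the presorted library. The intervals of the 2 lowest libraries overlapped. It was 18.3-fold lower in Prom1+CD49f+CD45- than in the presorted library (13.9 to 24.7) and 4.89-fold lower than in Prom1-CD49f+CD45- cells (3.47 to 6.95). Of the 2 drug sensors together, PXR made up 67.5% of counts per kb in Prom1+CD49f+CD45- cells, 6.30% in Prom1-CD49f+CD45- cells, 11.5% in the library labelled Prom1+CD49f+CD45+, against 8.31% in the presorted library. Of the exonic bases of Nr1i3, 74.9% (3304 of 4414) are shared with Tomm40l, which encodes a mitochondrial import channel, on the opposite strand. The counting step's handling of strand is not stated in the sources used here, and the reads of this pair cannot be told apart. Tomm40l had 16.9, 32.7, 25.6 and 34.7 CPM, a narrower range, and was 2.05-fold lower in Prom1+CD49f+CD45- than in the presorted library (1.86 to 2.26), which was not called.

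Targets of PXR and CAR, mostly drug-metabolising enzymes, were called lower for 22 of 26 and higher for 2 in Prom1+CD49f+CD45- than in the presorted library, with a median log2 ratio of -3.41, where 15.6% of all genes were called lower and 27.6% higher. In Prom1-CD49f+CD45- cells 24 were lower and 1 higher (median -2.69), and in the library labelled Prom1+CD49f+CD45+ 24 were lower and 0 higher (median -4.60), where 14.1% and 12.1% of all genes were called lower. Cyp3a11, the classic PXR target in mouse, had 26.6 CPM in Prom1+CD49f+CD45- cells, 151 in Prom1-CD49f+CD45- cells, 23.3 in the library labelled Prom1+CD49f+CD45+, against 1150.4 CPM in the presorted library, a 43.3-fold fall in Prom1+CD49f+CD45- cells (40.5 to 46.3). Cyp2b10, the classic CAR target, had 5.86, 42.2, 5.68 and 247 CPM and fell 42.1-fold (36.6 to 48.6). Cyp3a11 is also one of the hepatocyte markers whose fall is given above.

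The 2 higher ones were Abcb1a and Gadd45b. Abcb1a, a drug efflux pump and PXR target, had 143 CPM in Prom1+CD49f+CD45- cells, 12.6 in Prom1-CD49f+CD45- cells, 4.31 in the library labelled Prom1+CD49f+CD45+, against 33.8 in the presorted library, highest in Prom1+CD49f+CD45- cells. It was 4.23-fold higher in Prom1+CD49f+CD45- than in the presorted library (3.99 to 4.48). Gadd45b, a stress gene that CAR activators induce in mouse liver, had 144, 71.0, 13.3 and 14.3 CPM and was 10.1-fold higher (9.26 to 10.9). It was also 4.96-fold higher in Prom1-CD49f+CD45- than in the presorted library.

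Ppara, the fatty acid sensor that drives hepatic fat oxidation, had 3.68 CPM in Prom1+CD49f+CD45- cells, 1.20 in Prom1-CD49f+CD45- cells, 0.806 in the library labelled Prom1+CD49f+CD45+, against 12.8 in the presorted library. Presorted cells were highest, and the 2 lowest libraries overlapped, with 17 and 20 counts. It fell 3.48-fold in Prom1+CD49f+CD45- cells (2.87 to 4.26), 10.7-fold in Prom1-CD49f+CD45- cells (6.60 to 18.4) and 15.9-fold in the library labelled Prom1+CD49f+CD45+ (10.2 to 26.2), where it lay below percentile 95 of the chemosensory genes. The 3.06-fold difference between Prom1+CD49f+CD45- and Prom1-CD49f+CD45- cells (1.84 to 5.42) was not called.

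Pparg, the receptor of fat storage in adipocytes and of lipid handling in macrophages and endothelium, had 2.36 CPM in Prom1+CD49f+CD45- cells, 10.7 in Prom1-CD49f+CD45- cells, 10.7 in the library labelled Prom1+CD49f+CD45+, against 21.1 in the presorted library. Prom1+CD49f+CD45- cells stood alone at the bottom, and the other 2 sorted libraries overlapped. It fell 8.94-fold in Prom1+CD49f+CD45- cells against the presorted library (7.12 to 11.4), and was 4.51-fold lower than in Prom1-CD49f+CD45- cells (3.42 to 5.99). All 20 endothelial markers were also called lower in Prom1+CD49f+CD45- than in Prom1-CD49f+CD45- cells (median -5.39). Their sum was 10918 CPM in Prom1-CD49f+CD45- cells and 18644 CPM in presorted cells, the same direction as Pparg. The library labelled Prom1+CD49f+CD45+ had the highest sum, 25029 CPM, although its Pparg level lay below the presorted one. Against the presorted library, 17 of 20 stellate and fibroblast markers were called lower in Prom1+CD49f+CD45- cells and 1 higher. Of 18 macrophage markers, 14 were called lower there and 2 higher. Of all genes, 12.7% were called lower in the comparison with Prom1-CD49f+CD45- cells and 15.6% in that with the presorted library. The part of these cells in the Pparg result was not tested.

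Ppard, the most widely expressed of the 3 PPARs, had 2.95 CPM in Prom1+CD49f+CD45- cells, 1.48 in Prom1-CD49f+CD45- cells, 2.30 in the library labelled Prom1+CD49f+CD45+, against 1.01 in the presorted library. Its levels spanned the narrowest range of the 10, and every library overlapped its neighbour in the order. It was 2.91-fold higher in Prom1+CD49f+CD45- than in the presorted library (2.03 to 4.23). This call was lost without the filter on low counts, with the trend on transcript length removed and on the authors' normalized values. The last ratio included the 1 added to those values, which were 2.24 and 0.665 CPM without it. Ppard lay 3.48-fold over percentile 95 of the chemosensory genes in Prom1+CD49f+CD45- cells and 22.5-fold in the presorted library. The part of stray reads in the call was not tested. The PPAR make-up differed by library. Of PPAR counts per kb, Pparg held 28.1% in Prom1+CD49f+CD45- cells, 80.6% in Prom1-CD49f+CD45- cells, 77.0% in the library labelled Prom1+CD49f+CD45+, against 66.9% in the presorted library. Ppard held 40.1%, 12.8%, 18.9% and 3.67% in that order, and Ppara 31.7%, 6.58%, 4.19% and 29.4%.

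**Figure D3:**
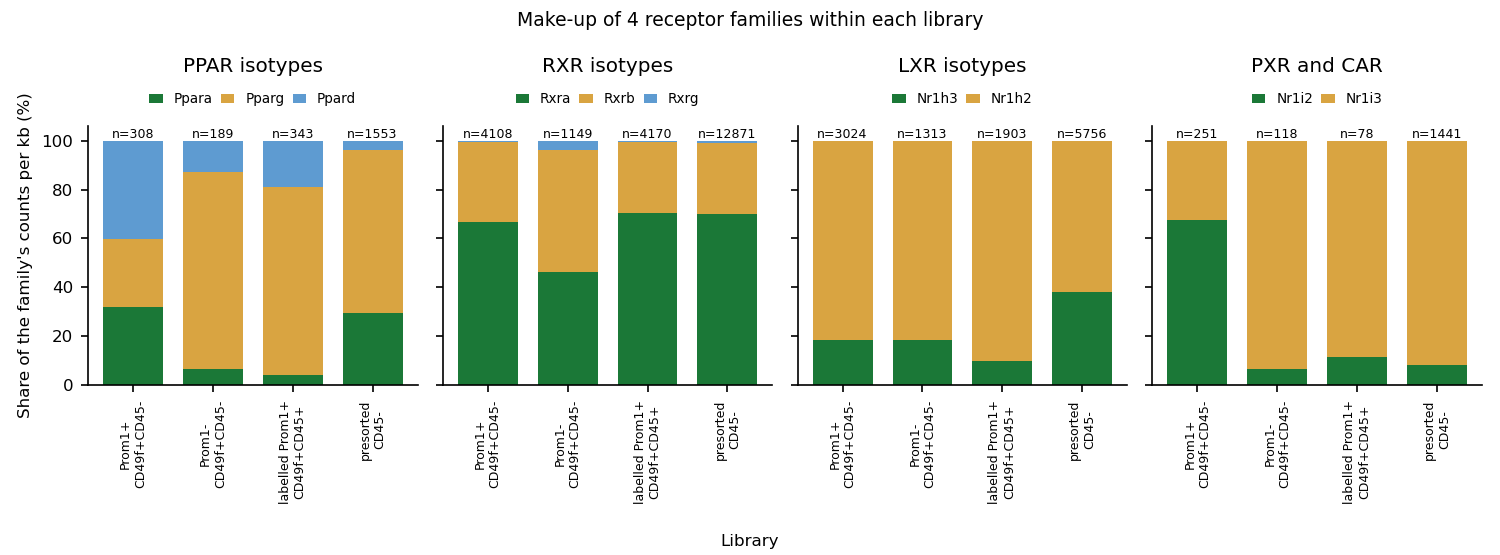
Share of each gene in the counts per kb of its receptor family, in percent, for the PPARs, the RXRs, the LXRs, and PXR with CAR, in each library (n is the number of the family's counts). Pparg holds 28.1% of the PPAR signal in Prom1+CD49f+CD45- cells and 66.9% to 80.6% elsewhere, and Nr1i2 holds 67.5% of the last family in Prom1+CD49f+CD45- cells and at most 11.5% elsewhere.

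Targets of PPAR alpha, the genes of fat oxidation and ketone synthesis, were called lower for 8 of 28 and higher for 1 in Prom1+CD49f+CD45- than in the presorted library (median -0.83), where 15.6% of all genes were called lower, 27.6% higher and 43.2% in all. In Prom1-CD49f+CD45- cells 16 were lower and 0 higher (-1.28), and in the library labelled Prom1+CD49f+CD45+ 20 were lower and 0 higher (-1.98), where 14.1% and 12.1% of all genes were called lower. Hepatocyte markers fell in all 3 libraries too, by the counts given above, and their part in this result was not tested. Cyp4a10, a fatty acid hydroxylase and sensitive PPAR alpha target in mouse, had 0.146, 1.77, 0.927 and 14.6 CPM, and its 5 counts in Prom1+CD49f+CD45- cells lay below percentile 95 of the chemosensory genes. The 1 higher gene was the thioesterase Acot1, at 71.7, 20.1, 1.81 and 24.1 CPM, which was 2.97-fold higher (2.77 to 3.20).

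Of 16 PPAR gamma targets 14 passed the filter, and 7 were called lower and 2 higher in Prom1+CD49f+CD45- than in the presorted library (median -0.95), where 43.2% of all genes were called in either direction. In Prom1-CD49f+CD45- cells 4 were lower and 3 higher, and in the library labelled Prom1+CD49f+CD45+ 4 lower and 2 higher, where 23.9% and 35.9% of all genes were called in either direction, so the last count is near its background. The fatty acid transporter Cd36 shared with Pparg its lowest level in Prom1+CD49f+CD45- cells. It had 171 CPM there, 1143 in Prom1-CD49f+CD45- cells, 2784 in the library labelled Prom1+CD49f+CD45+, against 2229 in the presorted library. Pparg instead had 10.7 CPM in the library labelled Prom1+CD49f+CD45+, below its 21.1 CPM in the presorted library. Fabp4, a fatty acid carrier of adipocytes and endothelium, had 4.61, 949, 264 and 192 CPM. It was 206-fold lower in Prom1+CD49f+CD45- than in Prom1-CD49f+CD45- cells (176 to 242), and 4.94-fold higher in Prom1-CD49f+CD45- than in the presorted library. The 2 targets called higher in Prom1+CD49f+CD45- than in the presorted library were Aqp7 and Cidea. Aqp7 had 3.12, 1.48, 6.12 and 0.405 CPM in the same order of libraries, and Cidea 3.12, 3.25, 0.121 and 0.473 CPM. Against Prom1-CD49f+CD45- cells, 4 targets were lower and 1 higher in Prom1+CD49f+CD45- cells. Of all genes, 12.7% were called lower and 15.5% higher there, 28.2% in all, so the count in either direction is near its background. The higher one was Gpd1, at 65.1, 17.7, 4.59 and 112 CPM.

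Rxra, the partner of most of these receptors, had the most counts of the 10 in every library and the narrowest intervals relative to its level. Its level was 80.8 CPM in Prom1+CD49f+CD45- cells, 38.3 in Prom1-CD49f+CD45- cells, 119 in the library labelled Prom1+CD49f+CD45+, against 204 in the presorted library, with no overlap between any intervals. Against the presorted library it fell 2.53-fold in Prom1+CD49f+CD45- cells (2.42 to 2.64), a call lost with library totals (log2 ratio -0.92 in place of -1.34), and 5.33-fold in Prom1-CD49f+CD45- cells (4.89 to 5.83). In the library labelled Prom1+CD49f+CD45+ it was 1.71-fold lower, which was not called. Of RXR counts per kb, Rxra held 66.8%, 46.1%, 70.4% and 69.8% in the same order of libraries, and Rxrb held 50.1% in Prom1-CD49f+CD45- cells. Rxrg held at most 3.86% in every library.

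**Figure D4:**
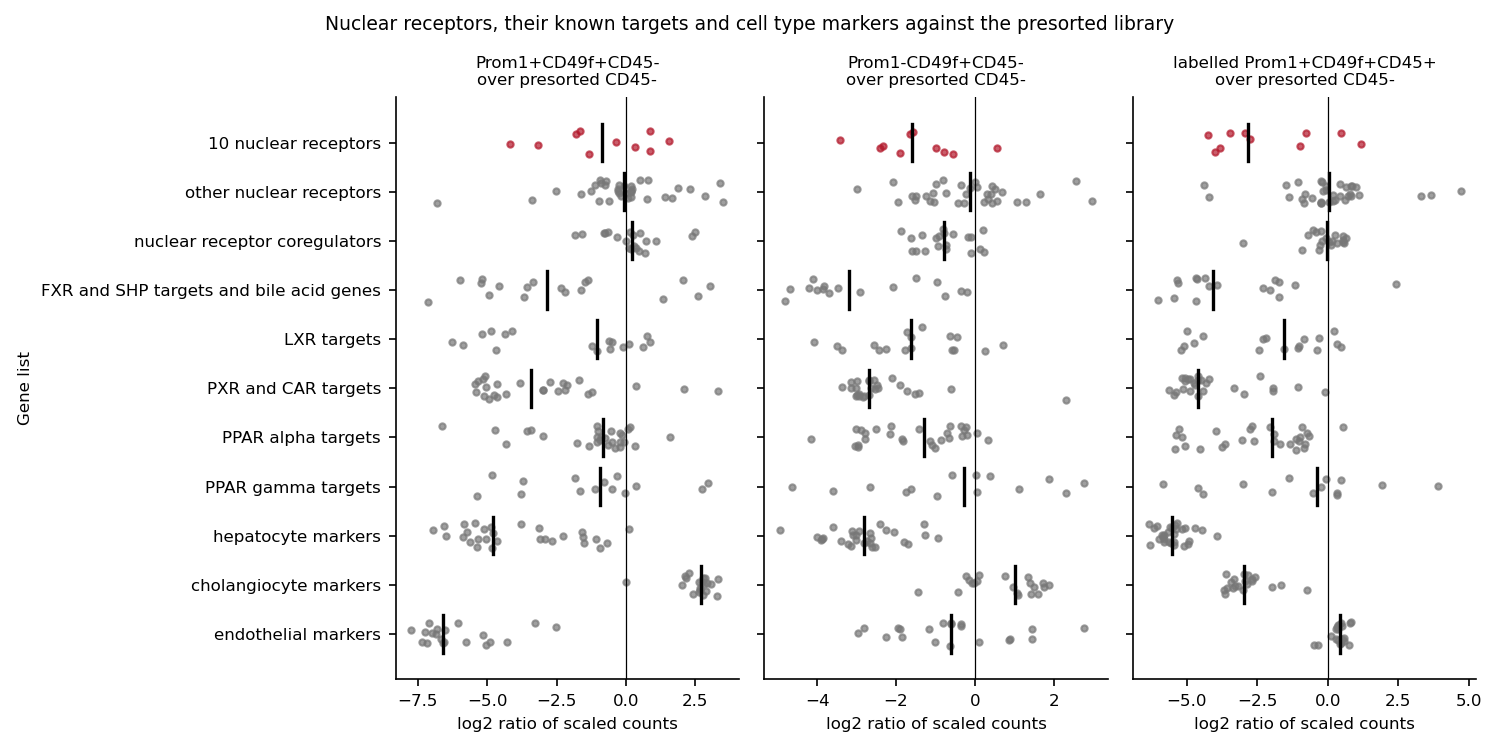
Log2 ratio against the presorted library for the 10 receptors (red), the other gene lists and 3 marker lists (grey), in the 3 sorted libraries. Each point is a gene with at least 10 counts in the 2 libraries together, and black bars are list medians. In Prom1+CD49f+CD45- cells the receptors' median of -0.85 lies above those of the bile acid genes (-2.86), the PXR and CAR targets (-3.41) and the hepatocyte markers (-4.79), and the cholangiocyte markers lie at 2.71.

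The genes most like each receptor were those with the smallest distance between their centred log2(CPM + 1) values over the 4 libraries, among 12888 genes with at least 100 counts in a library. For Nr1h4 these were Akr1c20, Oaf and Enpp3, at distances of 0.21 to 0.27, and for Nr0b2 they were Stbd1, Fndc4 and Agtr1a, at 0.12 to 0.28. Nr1i2 lay nearest to St6gal1, Btbd11 and Epb41l3, and Nr5a2 to Jund, D1Ertd622e and Kdm7a. Nr1h3 lay nearest to Gcdh, Scp2 and Lap3, Ppara to Slc10a5, Ctsc and Acot4, and Rxra to Rassf4, Ect2 and Hyou1. The remaining sets were Gdf10, Pdgfra and Cyp2a22 for Nr1i3, Slc16a9, Hist1h2ao and Tnxb for Pparg, and Elp4, Acrbp and Zfp398 for Ppard. Among the receptors themselves, Nr5a2 and Ppard lay closest to each other, at 0.72, and Nr0b2 and Pparg farthest apart, at 4.27. The likeness rests on 4 libraries and describes these values only.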

How the data were processed

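RNA of 4 cell populations, 1 library each, was sequenced after polyA selection with a stranded kit, per the labels' protocols. The title of the series speaks instead of Quant-seq, which reads 3′ tags, and this was not resolved. Per the submitters' processing notes, the tools were TopHat2 and Partek 3 and the genome build was mm10. Settings, annotation and the use of strand are not stated in the sources used here.

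The estimated counts per gene were deposited by the authors in 1 table, and normalized values in another, which are CPM with 1 added per the values themselves. The deposited columns of the sorted populations carry the population numbers of the design text. The remaining column, named CD45, was taken as the presorted cells, the only population left.

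Estimated counts were rounded and scaled by TMM over the 4 libraries in edgeR 4.0.16 (R 4.3.3). Of 41128 identifiers, 40254 had a symbol in GENCODE vM21. A gene was compared where any library gave it at least 10 counts, by the ratio of scaled counts, with an exact 95% conditional binomial interval. Levels have exact Poisson intervals. PCR reads without molecular identifiers are not independent molecules, so intervals cover counting error only. The comparison was also run on simulated counts, drawn with counting error alone and the same scaling factors. Such counts check the calculation and cannot show the effects of PCR, scaling, stray reads or replicate spread.

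The receptors, gene lists and thresholds were chosen with earlier results of these data known. A gene at 0 counts was set at 3 counts in a comparison. From each list the text names up to 4 genes of highest mean level and those of highest and lowest ratio per comparison among genes with at least 100 counts. Paralogs and overlapping genes were added outside that rule. Some genes that the rule names are not reported here. Alternatives were DESeq2 1.42.0 size factors, library totals, other filters and call rules, and removal of the trend on transcript length. The authors' values were also used, with their added 1 and with calls by the ratio alone. Chosen after seeing the data were a background limit from chemosensory genes, leaving out Nr1i3, and scaling without the library labelled Prom1+CD49f+CD45+.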

Additional observations from a re-analysis of the deposited data

How the results depend on the processing

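The number of receptors called was within 1.5 times its value in every comparison under every alternative run, and no receptor called in a comparison was called in the other direction. The ratios themselves moved more. On the authors' values 36 receptor ratios left their counting interval and 14 did not. The log2 ratios shifted by up to 1.54 (median 0.74) in the fourth comparison. These ratios kept the 1 added to the authors' CPM, which draws ratios of low levels toward 1. Shifts and calls on the authors' values, here and below, therefore do not measure the effect of scaling alone. With library totals 16 left it, with the length trend removed 8 (shifts of up to 0.67), and with DESeq2 size factors 2. Calls were lost for Nr1h4 between Prom1+CD49f+CD45- and Prom1-CD49f+CD45- cells with DESeq2 size factors, for Rxra between Prom1+CD49f+CD45- and presorted cells with library totals, and for Ppard there in 3 settings. For Ppard on the authors' values the ratio held the added 1, and in the other cases the cause was not tested. Library totals moved the median log2 ratio of all genes by 0.23, 0.42, 0.18 and 0.34 in the first 4 comparisons of the plot of ratios, and DESeq2 size factors by -0.17 and 0.17 in the first and the third. Of all genes called between Prom1+CD49f+CD45- and Prom1-CD49f+CD45- cells, 54.8% were higher with TMM, 66.9% with library totals, 45.5% with DESeq2 size factors and 46.3% on the authors' values. Between Prom1-CD49f+CD45- and presorted cells 40.9% were higher with TMM, 51.5% with DESeq2 size factors, 52.5% with library totals and 55.3% on the authors' values. Over all genes, 6107 were called in the first comparison, against 10814 without the interval and 9563 at 1.5-fold. In the second there were 9341, against 5881 on the authors' values and 6200 at a minimum of 50 counts. In the third there were 5171, against 9751 without the interval and 8403 at 1.5-fold. The fourth gave 7769, against 4843 on the authors' values, 4192 at a minimum of 50 counts and 4801 with the length trend removed. The last gave 5541, against 8685 without the interval. The minimum of 50 counts and the removal of the length trend left 15557 and 16856 genes, against 21640 in the main setting. Their totals therefore also differ by the genes left out. Scaling without the library labelled Prom1+CD49f+CD45+ changed no receptor's call. Without Nr1i3 the receptors called were 5 in each comparison. The log2 ratio correlated with transcript length across genes (Spearman 0.30 in the first and -0.33 in the third comparison). Ppara and Nr1i2 rest on 13 to 20 counts in their lowest libraries. No paired analysis was possible because each population has 1 library and its number is only a name.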

Other observations

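Of 38 nuclear receptors outside the 10, 35 passed the filter, and 6 were called higher and 5 lower in Prom1+CD49f+CD45- than in the presorted library, with a median log2 ratio of -0.05, where 27.6% and 15.6% of all genes were called. Hnf4a, the master regulator of hepatocyte genes, had 84.1 CPM in Prom1+CD49f+CD45- cells, 12.7 in Prom1-CD49f+CD45- cells, 5.48 in the library labelled Prom1+CD49f+CD45+, against 100.4 in the presorted library, and was not called between the first and the last (1.19-fold lower). Its paralog Hnf4g, known from intestinal epithelium, had 23.6, 2.68, 1.17 and 3.26 CPM in that order and was 7.24-fold higher in Prom1+CD49f+CD45- than in the presorted library (6.06 to 8.70). Nr2f1 and Nr2f2, the COUP transcription factors of veins and mesenchyme, were lowest in Prom1+CD49f+CD45- cells. Nr2f1 had 0.700, 17.9, 14.7 and 7.25 CPM and in Prom1+CD49f+CD45- cells lay below percentile 95 of the chemosensory genes (0.846 CPM). Nr2f2 had 69.5, 283, 229 and 134 CPM and was 4.07-fold lower in Prom1+CD49f+CD45- than in Prom1-CD49f+CD45- cells (3.87 to 4.28). Endothelial markers fell with both, 20 of 20 in that comparison, where 12.7% of all genes were called lower. Their part in the result was not tested.

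Of 20 coregulators, 3 were called higher and 2 lower in Prom1+CD49f+CD45- than in the presorted library (median 0.22), and 5 higher and 0 lower than in Prom1-CD49f+CD45- cells (median 0.75). These counts are no higher a share than the 43.2% and 28.2% of all genes called in the 2 comparisons. Prox1, a corepressor of LRH-1, had 345 CPM in Prom1+CD49f+CD45- cells, 35.7 in Prom1-CD49f+CD45- cells, 7.69 in the library labelled Prom1+CD49f+CD45+, against 62.0 in the presorted library, and was 5.56-fold higher in Prom1+CD49f+CD45- than in the presorted library (5.34 to 5.80). The coactivators Ppargc1a, 5.21-fold, and Ncoa1, 2.12-fold, were the other 2 higher ones, named after their values were seen. Ncoa3, a coactivator, had 22.8, 26.8, 123 and 82.5 CPM and was 3.61-fold lower in Prom1+CD49f+CD45- than in the presorted library (3.34 to 3.91). Ncor1, the main corepressor of unliganded receptors, had 203, 210.1, 200 and 179 CPM and was called in none of the 5 comparisons.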
